A study of Homo sapiens with 9 samples.

Results

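The genes described here are 32 listed genes of cholesterol metabolism, taken by symbol from the 60880 gene rows of each count table. They comprise 20 enzymes that make cholesterol or its isoprenoid precursors and 4 genes of the sterol-sensing system. The others are 5 genes of sterol uptake, transport and storage, and 3 of oxysterol reception and efflux. All 32 were found, each as 1 row. They were measured by RNA sequencing in LNCaP, an androgen-responsive human prostate cancer line first grown from a lymph node metastasis. There were 3 groups of 3 libraries. The rescue cells overexpressed UGT2B28 in the knockdown background and were selected with G418 at 1 mg/mL. The knockdown cells had UGT2B28, an enzyme that conjugates androgens to glucuronic acid, knocked down and were selected with puromycin at 3 µg/mL. The control cells carry only the label control, with the abbreviation NT, and no antibiotic is given for them. All groups were grown in RPMI with 10% fetal bovine serum and bear a time of 24 h, for which the labels name no starting event. A single knockdown line stands behind both derived groups, so a difference between it and the control may belong to that line or to its selection, which cannot be told apart here. Rescue and knockdown also differ in antibiotic, G418 against puromycin, so UGT2B28 and selection cannot be told apart in that comparison either. The labels do not say that the 3 libraries of a group came from separate cultures, so p-values measure only how far these libraries scatter, and that scatter may be technical.

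Cells make cholesterol from acetyl-CoA through mevalonate, farnesyl diphosphate, squalene and lanosterol, and they also take it up in lipoproteins. When sterols in the endoplasmic reticulum run low, the carrier SCAP escorts the transcription factor encoded by SREBF2 to the Golgi, where it is cleaved and released to switch on the synthesis genes, while the INSIG proteins hold that carrier back when sterols are plentiful. Prostate cancer cells are known for high sterol synthesis, and cholesterol is also the precursor of androgens.

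Promoter sequences are shown for 6 of the genes because they stand for the range of behaviour described below: STARD4, MSMO1 and INSIG1 had the largest differences between knockdown and control, HMGCS1 and SREBF2 had little difference, and NPC1 was lower. Each is the 250 bases just upstream of a RefSeq gene start, 5′ to 3′ on the gene's strand, in GRCh38.p14, and capitals mark CCAAT boxes (CCAAT, or ATTGG where it lies on the other strand) and, in SREBF2, the motif TCACNCCAC. The windows are STARD4 at chr5:111512536-111512785 (minus strand), MSMO1 at chr4:165327419-165327668 (plus), INSIG1 at chr7:155297628-155297877 (plus), HMGCS1 at chr5:43313413-43313662 (minus), SREBF2 at chr22:41832855-41833104 (plus) and NPC1 at chr18:23586507-23586756 (minus).
STARD4: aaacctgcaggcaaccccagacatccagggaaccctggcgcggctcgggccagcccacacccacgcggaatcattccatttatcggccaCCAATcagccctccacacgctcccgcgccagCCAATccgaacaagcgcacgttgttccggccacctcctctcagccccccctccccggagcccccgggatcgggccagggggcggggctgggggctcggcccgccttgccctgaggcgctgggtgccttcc
MSMO1: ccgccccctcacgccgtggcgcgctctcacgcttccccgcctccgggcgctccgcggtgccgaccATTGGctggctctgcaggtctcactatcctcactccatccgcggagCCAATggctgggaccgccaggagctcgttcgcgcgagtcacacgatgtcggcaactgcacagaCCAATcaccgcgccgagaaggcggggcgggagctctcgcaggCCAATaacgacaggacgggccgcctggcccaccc
INSIG1: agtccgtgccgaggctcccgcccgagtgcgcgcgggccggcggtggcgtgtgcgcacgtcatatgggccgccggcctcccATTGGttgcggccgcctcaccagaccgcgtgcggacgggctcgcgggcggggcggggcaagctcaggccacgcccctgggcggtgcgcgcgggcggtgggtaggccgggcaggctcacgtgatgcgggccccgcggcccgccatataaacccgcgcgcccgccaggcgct
HMGCS1: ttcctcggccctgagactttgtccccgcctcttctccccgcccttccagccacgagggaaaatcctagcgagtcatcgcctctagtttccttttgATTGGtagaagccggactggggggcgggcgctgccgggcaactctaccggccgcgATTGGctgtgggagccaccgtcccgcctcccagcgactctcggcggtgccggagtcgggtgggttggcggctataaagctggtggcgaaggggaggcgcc
SREBF2: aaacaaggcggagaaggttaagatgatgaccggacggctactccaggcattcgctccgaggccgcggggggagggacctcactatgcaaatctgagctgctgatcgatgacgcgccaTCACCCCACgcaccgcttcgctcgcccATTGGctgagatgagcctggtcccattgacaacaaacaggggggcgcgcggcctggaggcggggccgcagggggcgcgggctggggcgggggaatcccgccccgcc
NPC1: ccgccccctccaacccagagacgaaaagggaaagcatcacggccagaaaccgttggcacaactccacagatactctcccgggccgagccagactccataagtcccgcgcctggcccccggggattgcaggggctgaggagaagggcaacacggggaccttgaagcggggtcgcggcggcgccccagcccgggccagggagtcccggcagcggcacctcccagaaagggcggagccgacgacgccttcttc

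CCAAT boxes bind the factor NF-Y, which is known to act beside the sterol-responsive factors at many genes of this pathway. A window was on hand for 28 of the 32 genes, with 37 windows in all because some genes have more than 1 start. CCAAT on either strand was present in 22 of the 37 windows (59.5%), against 32% of all 35116 RefSeq windows of the same length, and 20 of the 28 genes had it in at least 1 window. The GC box GGGCGG was present on either strand in 33 of the 37 windows (89.2%), against 42.6% of all windows. TCACNCCAC, 1 spelling of a sterol regulatory element, was found on either strand only in the SREBF2 window (1 of 37, 2.7%), against 0.883% of all windows. The 3 searches did not exclude overlapping matches, and a match describes letters only. MSMO1 had 4 CCAAT boxes in its window, STARD4 and HMGCS1 had 2 each, INSIG1 and SREBF2 had 1 each, and NPC1 had 0. By outcome, CCAAT was present in 10 of 12 genes higher in knockdown than in control, in 9 of 13 genes not called in that comparison and in 1 of 2 genes lower in it.

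Gene counts summed to 20300744 to 26459528 per library, and levels are given below as CPM, a gene's counts scaled to a library of fixed size. These were 40.3 to 42.9% of all reads tallied per library, while 48.8 to 50.7% fell in no annotated gene feature. The reason for that share was not tested. UGT2B28 had 1124, 1554 and 1857 counts in the rescue libraries, 17, 8 and 1 in the knockdown libraries and 25, 4 and 10 in the control libraries. The rescue libraries stood far above both other groups, with a log2 fold change of 7.41 over knockdown (SE 0.34, edgeR adjusted p = 2.70e-08). Knockdown and control overlapped, and their log2 fold change of −0.60 (SE 0.62, edgeR adjusted p = 0.518) did not pass the test at these few counts, so the knockdown was not detectable here at the RNA level. Of 8 luminal prostate markers, all were expressed in all groups. Their summed level was 7820 to 8730 CPM in rescue, 7870 to 8440 CPM in knockdown and 3610 to 3920 CPM in control. In knockdown against control 6 of the 8 were higher and 1 lower, where 16.5% of all genes were higher and 15.6% lower. Most of the rise in the sum was KLK3 (means of 4407, 3750 and 1428 CPM in rescue, knockdown and control) and KLK2 (1330, 1698 and 125 CPM). In the same order KRT8 averaged 872, 1063 and 1012 CPM and ACP3 6.15, 3.12 and 10.0 CPM. Mitochondrial RNA took 3.19 to 3.86% of counts in rescue, 2.56 to 2.89% in knockdown and 4.64 to 5.69% in control. Both shifts run along the same groups as the sterol results below, and their part in them was not tested. Basal, endothelial (2 of 3 genes found) and neuroendocrine marker lists each summed to at most 7.23 CPM in any library, and the immune markers PTPRC and CD3E were at 0 in all 9. The fibroblast list summed to 57.9 to 70.6 CPM in rescue, 42.5 to 52.6 CPM in knockdown and 62 to 71.8 CPM in control, nearly all of it COL1A1, while DCN and LUM averaged at most 0.0281 CPM in any group. In such bulk RNA, fewer cells of a type and less RNA per cell cannot be told apart.

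In knockdown against control, 11 of the 20 synthesis enzymes were higher and 1 was lower. STARD4, a carrier that moves cholesterol between membranes in the cytosol, and MSMO1, the oxidase that strips methyl groups from sterol intermediates, were more than 2-fold higher, and INSIG1, IDI1 and FDFT1 were between 1.77-fold and 1.88-fold higher. LSS, the cyclase that folds oxidosqualene into lanosterol, was lower, as was NPC1, which exports cholesterol from lysosomes. Of the 31 genes with enough counts to test, 14 were higher, 2 were lower and 15 were not called (edgeR's quasi-likelihood test, Benjamini-Hochberg adjusted p under 0.05 over 18389 genes). These 16 calls are 51.6% of the genes tested, while over all genes tested 32.1% were called, 16.5% higher and 15.6% lower. Every knockdown library lay above every control in 18 genes and below in 2, where this held for 42.5% of all genes, 21.4% above and 21.1% below. The median log2 fold change was 0.23 for the 31 genes and 0.01 for all genes. When the test asked for a fold change above 1.5 in place of any difference, STARD4, MSMO1, INSIG1, IDI1 and FDFT1 were called higher and 0 genes lower, where 6.2% of all genes were called, 3.12% higher and 3.08% lower.

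In rescue against knockdown, fewer of the genes were called than in knockdown against control. LBR, a sterol reductase that also anchors chromatin at the nuclear envelope, MSMO1, STARD4 and SOAT1, which stores cholesterol as esters, were higher, and NPC1 and MVD were lower. The other 25 were not called, so that 19.4% of the 31 genes were called, against 10.1% of all genes tested, 5.2% higher and 4.88% lower. The median log2 fold change was −0.02 for the 31 genes and 0.00 for all genes. LBR and NPC1 kept their calls without any 1 library, with log2 fold changes between 0.46 and 0.59 for LBR and between −0.62 and −0.51 for NPC1, whereas MSMO1, STARD4, SOAT1 and MVD each lost theirs without 1 of several libraries, named beside their values below. At a fold change above 1.5, 0 of the 31 genes were called in either direction, where 0.614% of all genes were. The groups did not overlap in 10 genes, 6 with rescue above knockdown and 4 below, where 27.5% of all genes did not, 13.7% in each direction.

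In rescue against control, 15 of the 31 genes were higher, 5 were lower and 11 were not called, which is 64.5%, against 37.8% of all genes tested, 19% higher and 18.8% lower. Every rescue library lay above every control in 17 genes and below in 4, where this held for 48.1% of all genes, 24.1% above and 24% below. The 31 genes had a median log2 fold change of 0.25, against 0.00 for all genes. STARD4, MSMO1, INSIG1 and FDFT1 were more than 2-fold higher, and the lower genes were NPC1, LSS, MVD, ABCG1 and NPC2. At a fold change above 1.5, STARD4, MSMO1, INSIG1, FDFT1 and IDI1 were called higher and NPC1 lower, where 8.06% of all genes were called, 4.24% higher and 3.82% lower. The 3 comparisons share libraries in pairs and are not independent of each other.

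**Figure D1:**
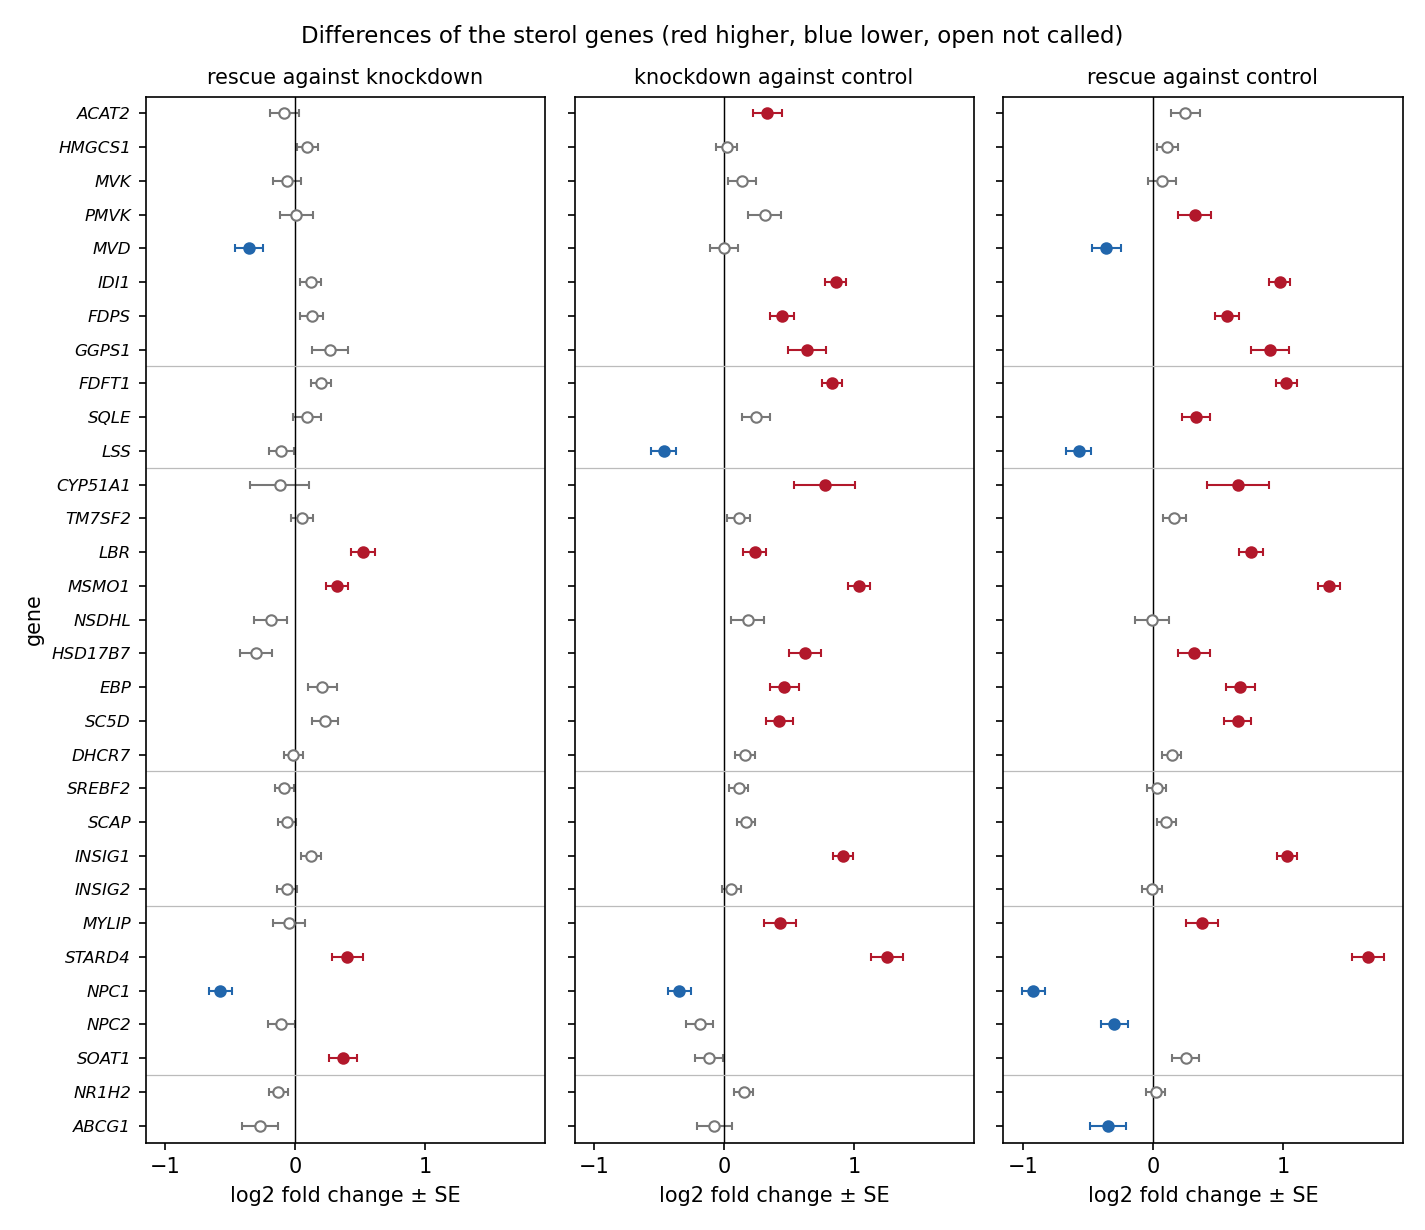
Log2 fold change (horizontal axis, ± SE) of the 31 tested sterol genes (rows, by role) in rescue against knockdown, knockdown against control and rescue against control. Red points are higher, blue points lower and open points not called. In rescue against knockdown, 6 points are filled, and the other panels have 16 and 20 filled points, and the value of STARD4 is 0.40, 1.25 and 1.65 across the 3 panels.

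**Figure D2:**
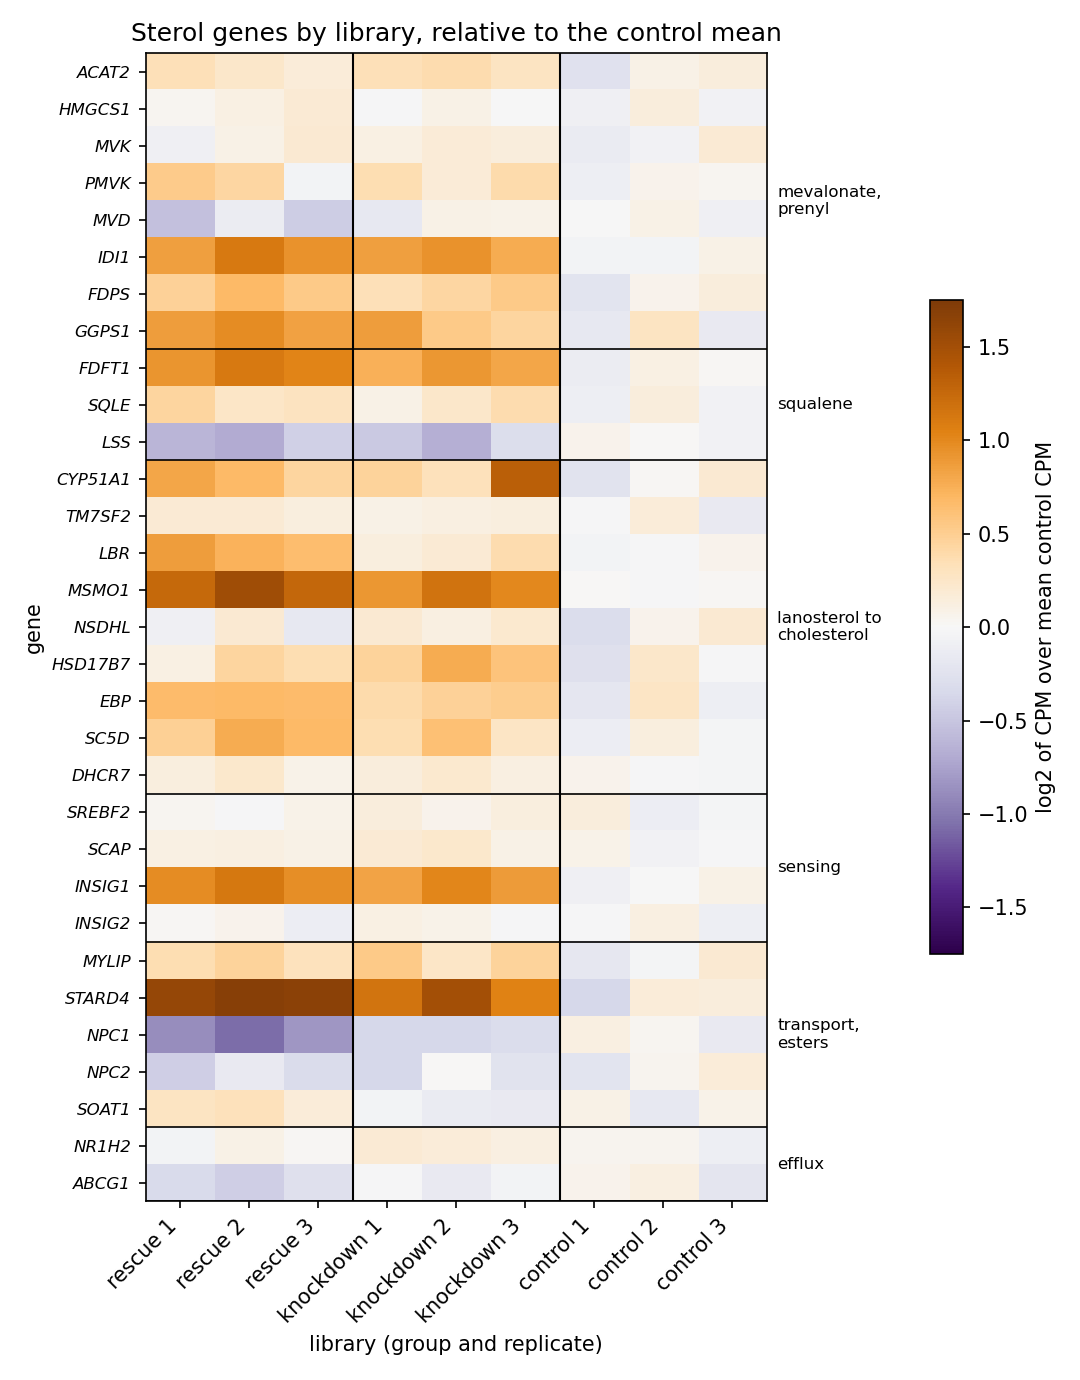
Level of each tested sterol gene (rows) in each of the 9 libraries (columns), as log2 of CPM over the mean control CPM. The STARD4, MSMO1, INSIG1, IDI1 and FDFT1 rows are high in all 6 rescue and knockdown libraries, and the LSS and NPC1 rows are low in all 6.

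The mevalonate steps and the prenyl branch hold 8 of the genes, of which 4 were higher and 0 lower in knockdown than in control, where 16.5% of all genes were higher and 15.6% lower. IDI1, which isomerizes isopentenyl diphosphate so that chains can be built from it, had 114, 138 and 122 CPM in rescue, 115, 121 and 108 CPM in knockdown and 61.2, 61.3 and 67.5 CPM in control. All 6 derived libraries lay above all 3 controls, and rescue overlapped knockdown. IDI1 was higher by 0.86 on the log2 scale (SE 0.08, edgeR adjusted p = 1.64e-09) in knockdown and by 0.97 (SE 0.08, edgeR adjusted p = 9.27e-11) in rescue, each against control. Between rescue and knockdown the difference was 0.12, with a 95% interval of −0.08 to 0.31. FDPS, which joins the units into farnesyl diphosphate, averaged 94.4 ± 6.59 CPM in rescue, 86.5 ± 6.23 CPM in knockdown and 63.7 ± 8.38 CPM in control (SD over 3 libraries, as throughout), and was higher in knockdown than in control by 0.44 on the log2 scale (SE 0.09, edgeR adjusted p = 3.47e-04). GGPS1, which makes the geranylgeranyl diphosphate used to anchor small GTPases, had 18.8, 20.3 and 18.5 CPM in rescue, 18.9, 14.9 and 14.0 CPM in knockdown and 9.17, 12.5 and 9.27 CPM in control. Every control library was the lower, and GGPS1 was higher by 0.63 in knockdown (SE 0.14, edgeR adjusted p = 0.00112) and by 0.90 in rescue (SE 0.14), each against control. ACAT2, which condenses acetyl-CoA at the entry of the pathway, averaged 27.9 ± 1.65 CPM in rescue, 29.6 ± 0.87 CPM in knockdown and 23.5 ± 3.38 CPM in control. Its difference of 0.33 between knockdown and control (edgeR adjusted p = 0.0219) fell to 0.21 (adjusted p = 0.171) without control 1, which had 19.7 CPM, and to 0.31 (adjusted p = 0.0701) without knockdown 2. In rescue against control ACAT2 was not called (0.25, edgeR adjusted p = 0.0809), except without control 3 (0.33).

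HMGCS1, which makes the substrate for the mevalonate-forming reductase, had 80.4, 84.9 and 89.7 CPM in rescue, 77.6, 83.7 and 78.3 CPM in knockdown and 73.9, 86.9 and 75.6 CPM in control. The groups overlapped in all comparisons, and the 95% interval of its log2 difference between knockdown and control was −0.18 to 0.22. MVK, the kinase that phosphorylates mevalonate, had 27.3 to 33.2 CPM in rescue, 31.0 to 32.6 CPM in knockdown and 26.3 to 32.9 CPM in control and was called in no comparison. PMVK, the next kinase, averaged 23.7 ± 4.66 CPM in rescue, 23.5 ± 1.95 CPM in knockdown and 18.9 ± 1.10 CPM in control. PMVK was not called in knockdown against control (0.31, edgeR adjusted p = 0.0627), except without knockdown 2 (0.38). It was just past the threshold in rescue against control (log2 fold change 0.32, edgeR adjusted p = 0.0489) and lost that call without control 1, 2 or 3 or rescue 1 or 2, with values from 0.21 to 0.35. MVD, which decarboxylates the mevalonate product, had 27.8, 36.8 and 29.6 CPM in rescue, 35.6, 42.8 and 42.4 CPM in knockdown and 40.2, 42.9 and 37.7 CPM in control. Rescue was lower than knockdown by a log2 fold change of −0.36 (SE 0.11, edgeR adjusted p = 0.0322) although rescue 2 lay above knockdown 1, and all rescue libraries lay below all controls (−0.36, edgeR adjusted p = 0.00977). The call against knockdown was lost without knockdown 2 or 3 or rescue 1 or 3 (−0.32 to −0.28), and that against control without rescue 1 (−0.28, adjusted p = 0.0774) or rescue 3 (−0.31, adjusted p = 0.0527).

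Exons of several of these genes lie over other genes in the GENCODE annotation, and whether counting used strand is not given in the sources used here, so reads of opposite-strand partners cannot be told apart. The shared part was 33.9% of ACAT2 exon bases with SOD2-OT1, 26.5% with SOD2 and 9.23% with TCP1. Over all libraries these partners had 29, 1494 and 51350 counts in turn, against 5761 for ACAT2. It was 18.6% of FDPS with RUSC1-AS1, 15% of HMGCS1 with AC114947.2 and 14.8% of IDI1 with IDI2-AS1. GGPS1 shares 37.3% of its exon bases with TBCE on its own strand, where reads may go to neither gene.

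From squalene to lanosterol, the 3 genes did not move together. FDFT1, the synthase that joins farnesyl diphosphate into squalene, had 397, 456 and 432 CPM in rescue, 353, 394 and 371 CPM in knockdown and 192, 226 and 214 CPM in control. The 3 groups did not overlap, with rescue above knockdown and knockdown above control. The log2 fold change was 0.83 (SE 0.08, edgeR adjusted p = 1.29e-09) in knockdown and 1.03 (SE 0.08, edgeR adjusted p = 1.22e-11) in rescue, each against control. At 0.20, rescue against knockdown was not called (SE 0.08, edgeR adjusted p = 0.0993). SQLE, the epoxidase that is a slow step of the pathway, averaged 33.2 CPM in rescue, 31.2 CPM in knockdown and 26.4 CPM in control. It was not called in knockdown against control (0.24, edgeR adjusted p = 0.0882), except without control 2 (0.32) or knockdown 1 (0.31). It was called higher in rescue against control (0.33, edgeR adjusted p = 0.0157), a call lost without control 1 (0.28), control 3 (0.30) or rescue 1 (0.27). LSS had 41.0, 38.8 and 47.0 CPM in rescue, 45.5, 39.8 and 51.5 CPM in knockdown and 65.4, 63.1 and 60.2 CPM in control. Every derived library lay below every control. LSS was lower by a log2 fold change of −0.47 (SE 0.10, edgeR adjusted p = 4.75e-04) in knockdown and −0.57 (SE 0.10, edgeR adjusted p = 2.92e-05) in rescue, each against control, while the derived groups overlapped (−0.11, with a 95% interval of −0.35 to 0.13).

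**Figure D3:**
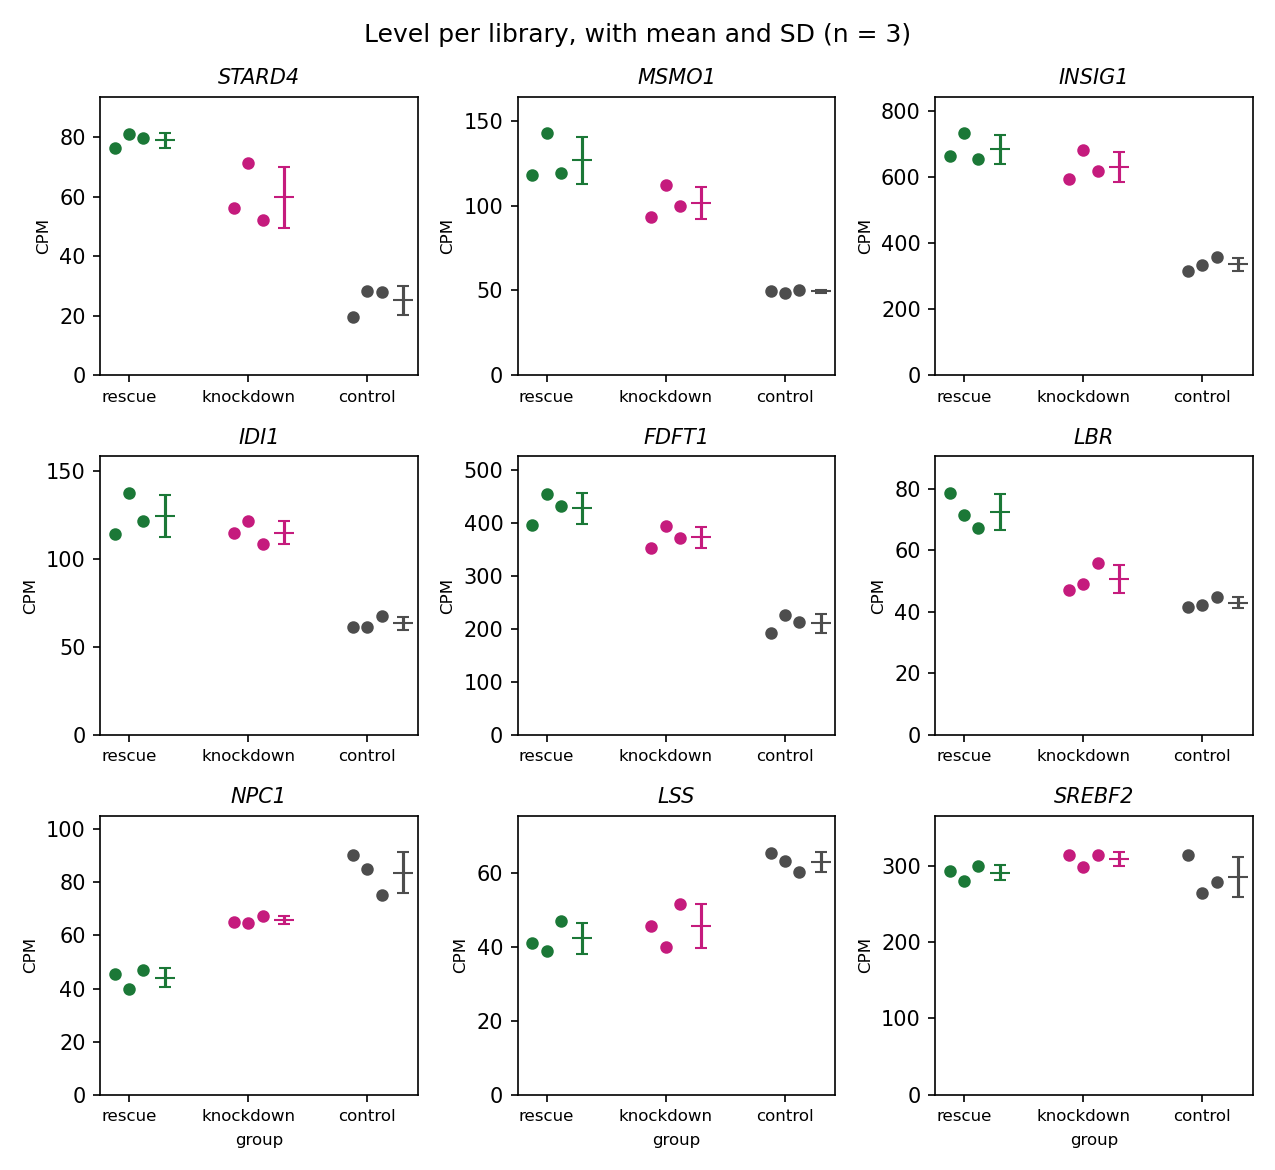
CPM of 9 sterol genes in each library (points) with the group mean and SD beside them (n = 3), for rescue, knockdown and control. STARD4, MSMO1, INSIG1, IDI1 and FDFT1 are higher in both derived groups than in control, LBR is highest in rescue, NPC1 and LSS are lower in both derived groups, and SREBF2 stays between 264 and 315 CPM.

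The 9 genes from lanosterol to cholesterol all had positive log2 fold changes in knockdown against control, with a median of 0.42. Of these, 6 were called higher, against 16.5% of all genes tested, and the calls of LBR and CYP51A1 among them were lost without 1 library. MSMO1 had 118, 143 and 119 CPM in rescue, 93.4, 112 and 99.7 CPM in knockdown and 49.6, 48.6 and 50.4 CPM in control. The groups were stacked without overlap, rescue highest and control lowest, and the controls spanned less than 2 CPM. Its log2 fold change was 1.04 (SE 0.09, edgeR adjusted p = 1.29e-10) in knockdown and 1.35 (SE 0.09, edgeR adjusted p = 3.20e-13) in rescue, each against control. Rescue was higher than knockdown by 0.32 (SE 0.08, edgeR adjusted p = 0.0131), a call lost without knockdown 1 (0.26), knockdown 3 (0.30) or rescue 2 (0.22).

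LBR and TM7SF2 encode alternative reductases for the same sterol double bond. LBR had 78.8, 71.5 and 67.3 CPM in rescue, 47.0, 49.0 and 55.8 CPM in knockdown and 41.7, 42.4 and 44.9 CPM in control. The groups again did not overlap, and here the wider gap was between rescue and knockdown. The log2 fold change was 0.52 in rescue against knockdown (SE 0.09, edgeR adjusted p = 2.03e-04) and 0.75 in rescue against control (SE 0.09, edgeR adjusted p = 1.09e-07). In knockdown against control LBR was at the threshold (0.23, SE 0.09, edgeR adjusted p = 0.0493), and the call was lost without any of control 1, 2 or 3 or knockdown 2 or 3 (0.16 to 0.26) and under DESeq2 (adjusted p = 0.0532). TM7SF2 averaged 60.9 CPM in rescue, 58.7 CPM in knockdown and 54.4 CPM in control, with overlap in all comparisons and a 95% interval of −0.16 to 0.27 for rescue against knockdown. Its difference of 0.16 in rescue against control (edgeR adjusted p = 0.147) was called only without control 2 (0.25). Per kilobase of exon and within each library, LBR stood to TM7SF2 at 0.772 ± 0.0504 in rescue, 0.558 ± 0.0426 in knockdown and 0.518 ± 0.0749 in control.

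Of the remaining enzymes, EBP, the sterol isomerase, had 37.3, 37.6 and 37.3 CPM in rescue, 30.9, 32.8 and 33.5 CPM in knockdown and 20.4, 28.3 and 21.9 CPM in control. Every derived library lay above the controls, and EBP was higher by 0.46 in knockdown (SE 0.11, edgeR adjusted p = 0.00179) and by 0.67 in rescue (SE 0.11, edgeR adjusted p = 1.67e-05), each against control. SC5D, the desaturase that follows, averaged 57.5 ± 5.58 CPM in rescue, 49.2 ± 6.44 CPM in knockdown and 36.7 ± 3.23 CPM in control, and was higher by 0.42 in knockdown (SE 0.10, edgeR adjusted p = 0.00196) and by 0.65 in rescue (SE 0.10, edgeR adjusted p = 8.71e-06) than in control. HSD17B7, a sterol ketone reductase, had 24.8, 31.4 and 29.5 CPM in rescue, 31.8, 39.5 and 34.7 CPM in knockdown and 19.1, 27.2 and 22.8 CPM in control. Here knockdown was the highest group and every knockdown library lay above all others, with a log2 fold change of 0.62 against control (SE 0.12, edgeR adjusted p = 2.80e-04). Rescue against knockdown was −0.30 (edgeR adjusted p = 0.121), and rescue against control was 0.32 (edgeR adjusted p = 0.0462) but was not called without control 1 (0.19), control 3 (0.31), rescue 2 (0.24) or rescue 3 (0.30). A pseudogene copy, HSD17B7P2, held 30.8% as many counts as HSD17B7, and how reads were split between them is uncertain.

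CYP51A1, the demethylase that opens this stretch, had 7.21, 6.50 and 5.54 CPM in rescue, 5.61, 5.09 and 10.3 CPM in knockdown and 3.44, 4.13 and 4.68 CPM in control. Knockdown 3 alone was nearly 2-fold above the other knockdown libraries. The log2 fold change of 0.77 in knockdown against control (SE 0.23, edgeR adjusted p = 0.0120) fell to 0.40 (adjusted p = 0.211) without it, and that of 0.65 in rescue against control (edgeR adjusted p = 0.0296) was not called without control 1 (0.54), control 2 (0.66), rescue 1 (0.56) or rescue 2 (0.64). CYP51A1 shares 79.4% of its exon bases with AC000120.2 on the same strand in GENCODE, which had 0 counts, so its level here may be far too low. NSDHL, a dehydrogenase of sterol demethylation, averaged 20.5 CPM in rescue, 23.3 CPM in knockdown and 20.7 CPM in control and was called in no comparison. DHCR7, which reduces the last intermediate to cholesterol, averaged 100.5 CPM in rescue, 101.7 CPM in knockdown and 91.0 CPM in control. Its knockdown and rescue libraries all lay above the controls, by 0.16 and 0.14 on the log2 scale, but neither difference passed the test (edgeR adjusted p = 0.102 and 0.133).

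Added over the 20 synthesis enzymes, the level per library was 1385 to 1535 CPM in rescue, 1278 to 1380 CPM in knockdown and 918 to 1023 CPM in control. The derived groups lay clear of the control, and the lowest rescue library lay just above the highest knockdown library. FDFT1 is the largest single term of this sum, averaging 428 CPM in rescue, 373 CPM in knockdown and 210 CPM in control. Of the 20 enzymes, 11 were higher and 1 lower in knockdown than in control (60%, against 32.1% of all genes tested). In rescue relative to knockdown 2 rose and 1 fell (15%, against 10.1% of all genes), and 12 were higher and 2 lower in rescue than in control (70.0%, against 37.8% of all genes).

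Among the 4 genes of the sterol-sensing system, INSIG1 stood apart. It encodes a protein of the endoplasmic reticulum that retains SCAP, and its gene is a classical target of the factor it restrains. INSIG1 had 662, 733 and 654 CPM in rescue, 592, 679.9 and 618 CPM in knockdown and 315, 334 and 356 CPM in control. Rescue and knockdown overlapped, and both lay far above control. The log2 fold change was 0.91 (SE 0.08, edgeR adjusted p = 2.03e-10) in knockdown and 1.03 (SE 0.08, edgeR adjusted p = 1.23e-11) in rescue, each against control, and it was 0.12 between rescue and knockdown, with a 95% interval of −0.07 to 0.30. Per kilobase of exon, INSIG1 was the highest of the 32 genes in all groups, at 187 CPM/kb in rescue, 173 CPM/kb in knockdown and 91.8 CPM/kb in control, followed by FDFT1 at 82.3, 71.7 and 40.5 CPM/kb in the same groups. INSIG2, its paralog, averaged 117 ± 7.27 CPM in rescue, 122 ± 5.27 CPM in knockdown and 118 ± 8.88 CPM in control. Its groups overlapped in all comparisons, with a 95% interval of −0.13 to 0.24 for knockdown against control, so the ratio of INSIG1 to INSIG2 per kilobase was 6.31 ± 0.294 in rescue, 5.57 ± 0.446 in knockdown and 3.09 ± 0.356 in control.

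SREBF2, the gene of the transcription factor itself, had 293, 281 and 301 CPM in rescue, 314, 299 and 314 CPM in knockdown and 315, 264 and 279 CPM in control. The groups overlapped, and the 95% interval of the log2 difference was −0.07 to 0.29 for knockdown minus control and −0.26 to 0.09 for rescue minus knockdown. SCAP averaged 115 CPM in rescue, 120.5 CPM in knockdown and 107 CPM in control. All knockdown libraries lay above all controls, but the difference of 0.17 did not pass the test (edgeR adjusted p = 0.0761), except without control 1 (0.20) or knockdown 3 (0.21). RNA counts do not report cleavage of the factor, which SCAP and the INSIG proteins control.

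**Figure D4:**
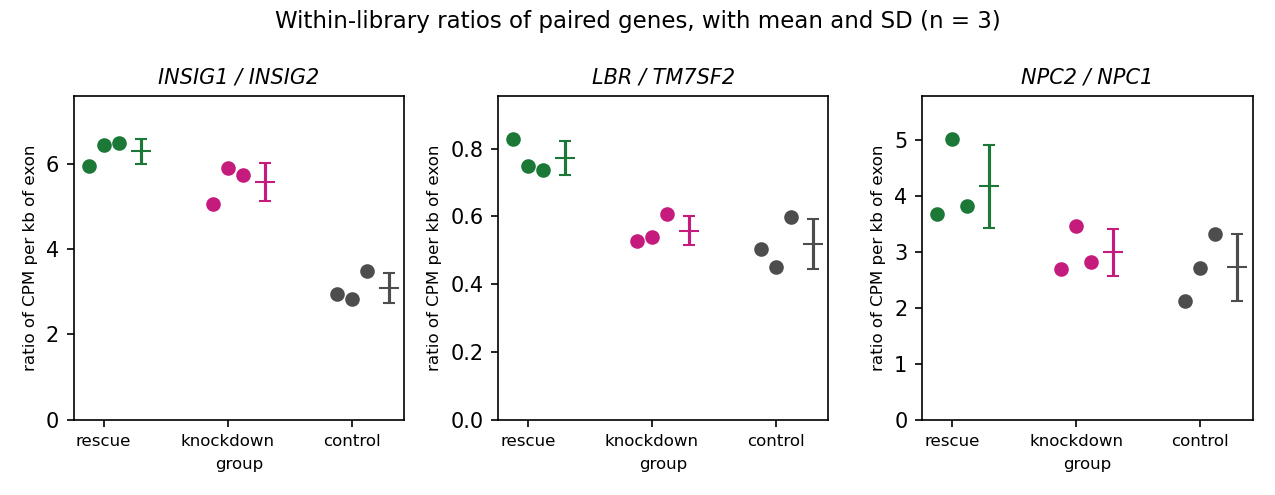
Ratio of CPM per kilobase of exon within each library (points) for INSIG1 over INSIG2, LBR over TM7SF2 and NPC2 over NPC1, with mean and SD (n = 3), in rescue, knockdown and control. INSIG1 over INSIG2 is 5.07 or above in all 6 derived libraries and at most 3.50 in control, while LBR over TM7SF2 and NPC2 over NPC1 separate rescue, with lowest values of 0.736 and 3.67, from the other groups, with highest values of 0.606 and 3.47.

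Among the genes of uptake, transport and storage, STARD4 had 76.2, 81.0 and 79.6 CPM in rescue, 56.1, 71.3 and 52.0 CPM in knockdown and 19.6, 28.1 and 27.9 CPM in control. The 3 groups did not overlap, and STARD4 had the largest log2 fold changes of the 31 genes against control, 1.25 in knockdown (SE 0.13, edgeR adjusted p = 8.98e-08) and 1.65 in rescue (SE 0.13, edgeR adjusted p = 9.01e-10). Rescue was higher than knockdown by 0.40 (SE 0.12, edgeR adjusted p = 0.0373), a call lost without knockdown 1 (0.35) or 3 (0.31) or rescue 1 (0.42), 2 (0.38) or 3 (0.40). MYLIP, a ubiquitin ligase that marks lipoprotein receptors for breakdown, averaged 21.4 ± 1.08 CPM in rescue, 22.1 ± 2.19 CPM in knockdown and 16.5 ± 2.30 CPM in control. It was higher by 0.43 in knockdown (SE 0.12, edgeR adjusted p = 0.00811) and by 0.38 in rescue (SE 0.12, edgeR adjusted p = 0.0155) than in control, calls that were lost without control 1 (0.33 for knockdown and 0.29 for rescue) and, for rescue, without rescue 2 (0.34).

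NPC1 and NPC2 hand cholesterol out of the lysosome, NPC2 binding it in the lumen and passing it to NPC1 in the membrane. NPC1 had 45.4, 39.9 and 47.1 CPM in rescue, 65.2, 64.8 and 67.5 CPM in knockdown and 90.4, 85.2 and 75.2 CPM in control. The groups were stacked in the opposite order to MSMO1, rescue lowest and control highest, with no overlap. NPC1 was lower in all comparisons, with log2 fold changes of −0.58 in rescue against knockdown (SE 0.09, edgeR adjusted p = 4.21e-05), −0.35 in knockdown against control (SE 0.09, edgeR adjusted p = 0.00268) and −0.92 in rescue against control (SE 0.09, edgeR adjusted p = 1.49e-09). NPC2 had 45.4, 54.6 and 49.0 CPM in rescue, 47.7, 61.2 and 51.8 CPM in knockdown and 52.3, 63.0 and 68.0 CPM in control. Its groups overlapped. The difference of −0.19 between knockdown and control was not called (edgeR adjusted p = 0.175), but was without control 1 (−0.30, adjusted p = 0.0229) or knockdown 2 (−0.30, adjusted p = 0.0472). The call of lower in rescue than in control (−0.30, edgeR adjusted p = 0.0256) was lost without control 2 (−0.27), control 3 (−0.21), rescue 1 (−0.24) or rescue 3 (−0.28). Per kilobase, NPC2 stood to NPC1 at 4.18 ± 0.741 in rescue, 2.99 ± 0.419 in knockdown and 2.72 ± 0.599 in control. SOAT1 had 31.5, 32.4 and 28.99 CPM in rescue, 25.2, 23.6 and 23.2 CPM in knockdown and 27.7, 23.0 and 27.3 CPM in control. All rescue libraries lay above all others. The log2 fold change of 0.37 against knockdown (SE 0.11, edgeR adjusted p = 0.0246) was called, except without knockdown 2 (0.36) or 3 (0.34) or rescue 1 (0.35) or 2 (0.33), and that of 0.25 against control was not (edgeR adjusted p = 0.0640), except without control 1 (0.30).

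Of the efflux genes, ABCA1, the transporter that loads cholesterol onto apolipoprotein, had 4, 0 and 1 counts in the rescue libraries, 6, 1 and 10 in knockdown and 7, 4 and 3 in control and was too low to test. Pooled, these are 0.0694 CPM in rescue, 0.237 CPM in knockdown and 0.199 CPM in control, with exact Poisson 95% intervals, for counting error only, of 0.0225 to 0.162, 0.138 to 0.379 and 0.109 to 0.334 CPM in the same groups. The libraries of the groups overlapped, and the difference between groups was not tested. ABCG1, a transporter that passes sterols to lipoprotein particles, had 11.3, 10.6 and 11.8 CPM in rescue, 14.0, 12.8 and 13.9 CPM in knockdown and 14.9, 15.5 and 12.4 CPM in control. Rescue lay below both other groups, and the difference was called against control (−0.35, SE 0.14, edgeR adjusted p = 0.0463) but not against knockdown (−0.27, edgeR adjusted p = 0.239). The call was lost without any 1 of the 3 rescue libraries (−0.38 to −0.30), control 1 (−0.31) or control 2 (−0.28). NR1H2, the nuclear receptor for oxysterols that drives both transporters, averaged 107 CPM in rescue, 117 CPM in knockdown and 106 CPM in control and was called in no comparison.

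Around these genes, a list of 64 other sterol-related genes, covering prenyl transferases, oxysterol and bile acid enzymes, sterol carriers and lipoprotein genes, had 56 with enough counts to test. Knockdown against control gave 13 higher and 5 lower (32.1%, the same share as over all genes tested), with a median log2 fold change of 0.04. In rescue against knockdown 3 were higher and 5 lower (14.3%, against 10.1% of all genes), and in rescue against control 15 were higher and 10 lower (44.6%, against 37.8% of all genes), with medians of −0.01 and 0.02. ACSS2, which makes cytosolic acetyl-CoA from acetate, had 88.7, 98.3 and 92.8 CPM in rescue, 96.9, 93.7 and 94.2 CPM in knockdown and 59.6, 60.7 and 56.2 CPM in control. All 6 derived libraries lay above the controls, by a log2 fold change of 0.69 in knockdown (SE 0.08, edgeR adjusted p = 3.41e-08) and 0.67 in rescue (SE 0.08, edgeR adjusted p = 5.09e-08). GRAMD1A, which carries cholesterol from the plasma membrane to the endoplasmic reticulum, had 137, 148 and 150 CPM in rescue, 174, 183 and 163 CPM in knockdown and 273, 256 and 252 CPM in control. Its groups did not overlap, rescue lowest and control highest as for NPC1, with −0.26 in rescue against knockdown (edgeR adjusted p = 0.0185, not called without knockdown 2 at −0.21 or rescue 1 at −0.22), −0.59 in knockdown against control (edgeR adjusted p = 1.73e-07) and −0.85 in rescue against control (edgeR adjusted p = 1.36e-10). LPCAT3, which puts polyunsaturated chains into membrane phospholipids, was higher in knockdown than in control by 0.55 (SE 0.09, edgeR adjusted p = 1.03e-05), with means of 75.7 CPM in knockdown and 51.7 CPM in control. In rescue LPCAT3 averaged 71.4 CPM and was higher than in control by 0.47 (SE 0.09, edgeR adjusted p = 7.27e-05).

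OSBPL10, an oxysterol-binding protein relative, had 60, 49 and 42 counts in rescue, 68, 58 and 42 in knockdown and 2, 6 and 1 in control. It was near the detection limit in control only and passed the count filter only through the rescue and knockdown libraries. A test against control could therefore hardly call OSBPL10 lower, and no p-value is given for it, though it is among the genes counted as higher above. Its log2 fold change of 4.12 in knockdown against control (SE 0.52) rests on few control counts. It became 5.13 without control 2 and 3.75 without control 3. HSD3B7, an enzyme of bile acid synthesis, had 30.3, 32.2 and 26.4 CPM in rescue, 18.8, 18.8 and 13.1 CPM in knockdown and 17.0, 14.0 and 13.0 CPM in control. It was higher in rescue than in knockdown by 0.81 (SE 0.14, edgeR adjusted p = 1.49e-04) and than in control by 1.01 (SE 0.14, edgeR adjusted p = 9.21e-07), while knockdown and control overlapped. SREBF1, which encodes the related factor that favours fatty acid genes, had 811, 792 and 850 CPM in rescue, 995, 1005 and 1067 CPM in knockdown and 939, 939 and 888 CPM in control. Knockdown was the highest group, and rescue was lower than knockdown by a log2 fold change of −0.32 (SE 0.07, edgeR adjusted p = 0.00352). Rescue also lay below control (−0.17), which was not called (edgeR adjusted p = 0.0614) but was under DESeq2 (adjusted p = 0.0195) and voom (adjusted p = 0.0281). FNTA, a subunit of the enzymes that attach farnesyl and geranylgeranyl groups to proteins, averaged 43.3 ± 3.75 CPM in rescue, 56.5 ± 0.132 CPM in knockdown and 55.2 ± 3.95 CPM in control. It was lower in rescue than in knockdown (−0.38, SE 0.09, edgeR adjusted p = 0.00496), though not past the threshold without rescue 1 (−0.32, adjusted p = 0.0546). FNTA was also lower in rescue than in control (−0.35, SE 0.09, edgeR adjusted p = 0.00275), a call kept without any 1 library.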

How the data were processed

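RNA of 9 LNCaP libraries was sequenced, 3 in each of 3 groups. The tools named in the submitters' processing notes are HISAT2, HTSeq, cutadapt and FastQC, and the build is hg19. The deposited values are whole-number read counts per gene, with no normalization. No version, annotation release or strand setting is given in the sources used here. The 5 summary rows were left out. Gene identifiers, with versions removed, were matched to symbols in a supplied table of gene names, with 56414 of 60880 matched.

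Counts were tested with edgeR 4.0.16 (R 4.3.3) by the quasi-likelihood test, with TMM scaling, filterByExpr at a minimum count of 10 and all 9 libraries in 1 fit. This kept 18389 genes, and p-values were Benjamini-Hochberg adjusted over them, with a threshold of 0.05. The 95% intervals of log2 differences were made from the SE and a t distribution with 6 degrees of freedom. The test also borrows information on spread from other genes, so these intervals are somewhat wider than its p-values imply. CPM uses the scaled library sizes, and levels between genes are compared per kilobase of exons in GENCODE v29 (GRCh38). The steps were tested on simulated data for knockdown against control. Of genes set to a 1.5-fold change 44.8% were called, and of those set to a 2-fold change 83.6%. A gene not called may therefore still differ. The simulation changed few genes, 67 at each of these folds among 17899 tested, where 5899 of 18389 were called in the data. Its shares therefore need not hold for the genes described here. Alternatives were DESeq2 1.42.0, RLE scaling, limma 3.58.1 voom, no filter beyond 1 count, a filter of 1 CPM in 6 libraries, a tested fold of 1.5, only the groups compared, the replicate number as a block and each library left out. All 32 members are named. Of the other sterol-related genes, up to 4 per comparison with the smallest adjusted p are named, apart from 1 that is not reported here. The members, lists and rules were chosen with earlier results of these data known. Promoter windows are from RefSeq GRCh38.p14, and no coordinates were carried between builds. Some other genes of the pathway are not analysed here.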

Additional observations from a re-analysis of the deposited data

How the results depend on the processing

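Genes at few counts, such as ABCA1, could not be tested, and 3 libraries of 1 knockdown line limit every comparison. Control 1 differed more from controls 2 and 3 (chi-square over degrees of freedom of 20.9 and 17.5) than these did from each other (4.88). It had 5.69% mitochondrial RNA, against 4.64% and 4.82% in controls 2 and 3. Member calls lost without control 1 are given above with each gene. Requiring a tested fold of 1.5 left, for knockdown against control, rescue against knockdown and rescue against control in turn, 5, 0 and 5 members higher and 0, 0 and 1 lower, and 1, 0 and 3 other sterol genes higher and 1, 0 and 1 lower, fewer by construction. Leaving out 1 library gave in that order 12 to 15, 1 to 3 and 11 to 14 members higher and 2 to 3, 1 to 2 and 2 to 4 lower. For the other sterol genes it gave 10 to 13, 2 to 3 and 13 to 16 higher and 4 to 6, 1 to 4 and 7 to 8 lower. Over all genes, 18703 to 19086 were then tested. Of these, 4858 to 5422, 1196 to 1473 and 5809 to 6388 were called, against 5899, 1854 and 6946 of 18389 with all libraries. Calls were thus lost among all genes too, and whether the sterol genes lost theirs more often was not tested. LBR in knockdown against control was also not called with RLE scaling (adjusted p = 0.0533), no filter (0.0691), the stricter filter (0.0507), voom (0.0631) or only the groups compared (0.0767). In rescue against control, PMVK was not called with DESeq2 (0.0565), voom (0.0887) or only the groups compared (0.0563), ABCG1 with no filter (0.0952), voom (0.0505) or only the groups compared (0.0611), and HSD17B7 with DESeq2 (0.0544). Taken over all genes at once, same-numbered libraries did not deviate together (r from −0.0369 to 0.0772 over 9 pairs, against −0.0892 to 0.0767 over 18 other pairs), so the numbers were not taken to pair them. The replicate block nonetheless called more genes in all 3 comparisons, so some genes may share variation by number. With the replicate block, members higher and lower were 15 and 2, 5 and 3, and 15 and 5 in the 3 comparisons, and all genes called were 6348, 2319 and 7363, with SCAP newly called in the first (adjusted p = 0.0493), FDFT1 (0.0275) and HSD17B7 (0.0330) in the second and SREBF1 (0.0349) in the third. Directions turned only in results that were not called, and the cause was not tested: MVD in knockdown against control with no filter (0.00246), PMVK in rescue against knockdown with voom (−0.0205), NSDHL with voom (0.00989) and INSIG2 with only the groups compared (0.00106) in rescue against control. Without 1 library, 15 such log2 fold changes spanned 0. For rescue against knockdown they ran from −0.0648 to 0.00981 for ACSS2, −0.298 to 0.258 for CYP51A1, −0.0600 to 0.0206 for DHCR7, −0.128 to 0.00495 for MVK, −0.121 to 0.0140 for MYLIP, −0.186 to 0.00343 for NPC2, −0.395 to 0.0772 for OSBPL10 and −0.102 to 0.168 for PMVK. For knockdown against control they ran from −0.0251 to 0.0791 for FNTA, −0.0269 to 0.0967 for HMGCS1 and −0.0471 to 0.0837 for MVD. For rescue against control they ran from −0.0533 to 0.0535 for INSIG2, −0.0257 to 0.0550 for NR1H2, −0.145 to 0.105 for NSDHL and −0.0263 to 0.102 for SREBF2.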
